A study of Arabidopsis thaliana with 20 samples.

Results

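Among 22746 probe sets measured in Arabidopsis thaliana leaves over a short day, 150 formed the group described here: transcripts that stood highest at 8.5 h, shortly after the lights went off at 8 h. The group was chosen by measured values. Signals under 100 were raised to 100 and put on a log2 scale, and the 4 arrays at each harvest (both genotypes, both runs) were averaged. Of the 22746 probe sets (a probe set is the collection of short probes on the array that reads 1 transcript, or several alike), 3002 (13.2%) had their highest mean at 8.5 h. The 150 with the largest margin of that mean over the second highest were taken. The time pattern therefore describes how the group was chosen and was not tested. An annotation table tied 73 of the 150 to 1 gene and 3 to several genes, and it did not list the other 74.

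Transcripts of plant leaves follow the day through the circadian clock, through light itself and through the supply of sugars, which comes from photosynthesis in the light and from starch breakdown at night. The dusk phase of the clock includes evening genes that act on flowering and growth, and several cold-response genes are also gated by the clock, so that they can be seen to cycle in plants grown without cold. Sugar shortage acts on a further set of genes through energy-sensing kinases and bZIP transcription factors.

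The study compared wild-type plants (WT) with Atss3, a mutant in starch synthase 3, an enzyme that extends the glucan chains of leaf starch. The allele is not named in the labels. All plants were 6 weeks old and grew in short days, with the light on for 8 h and off for 16 h. Leaves 5 to 8 of 16 plants were pooled for each array and were taken under green light at 1 h and 4 h (light) and at 8.5 h, 12 h and 16 h (darkness) after lights on. Each of the 10 groups of genotype and time had 2 arrays. They came 1 from each of 2 runs of the whole experiment, with plants grown and randomized anew. The tests of genotype took out the shift shared by a run, so their p-values reflect the spread that was left between the 2 growths. In the tests between the runs each run was 1 growth, so their p-values do not measure how far growths vary.

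The 20 arrays had median signals of 152 to 178 and the same trimmed mean. Their number, not a read depth, limits the precision. RCA, LHCB4.1 and LHCB4.2, genes of photosynthesis in leaf mesophyll, were at 3673 or more on all arrays, while SWEET11 (a sugar transporter of the vasculature) lay at 3002 to 8258, FMA (guard cells) at 131 to 232 and PYK10 (roots) at 92.4 to 696. Of 24 listed cell type markers 6 were measured under a gene name, and none of those for epidermis or flowers. No named probe set was tied to starch synthase 3, so the mutant label could not be checked by it. The 3'/5' log2 ratio of the GAPDH control probe sets, a sign of RNA quality, was -0.22 to 0.051 on the 5 WT arrays of run 1 and 0.15 to 0.71 on the other 15.

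At 8.5 h the median of the 150 mean signals was 1353. It was 200.4 at 1 h, 258 at 4 h, 429 at 12 h and 373 at 16 h (a mean signal here is the geometric mean of 4 arrays after raising to 100). The signal was thus low in the light, high at 8.5 h and intermediate later in the night. Over the members the median fold of 8.5 h was 5.72 over 1 h, 4.14 over 4 h, 3.13 over 12 h and 3.53 over 16 h. The margin itself ran from 1.1 to 3.72 on the log2 scale with a median of 1.45, or from 2.15-fold to 13.2-fold with a median of 2.73-fold, and 23 members exceeded 4-fold. In 128 members all 4 arrays of 8.5 h lay above all 16 others. This separation was found in 1.74% of all probe sets, and it belongs to the contrast by which members were chosen. In bulk leaves, more cells of a type and more RNA per cell cannot be told apart in any of these levels.

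**Figure D1:**
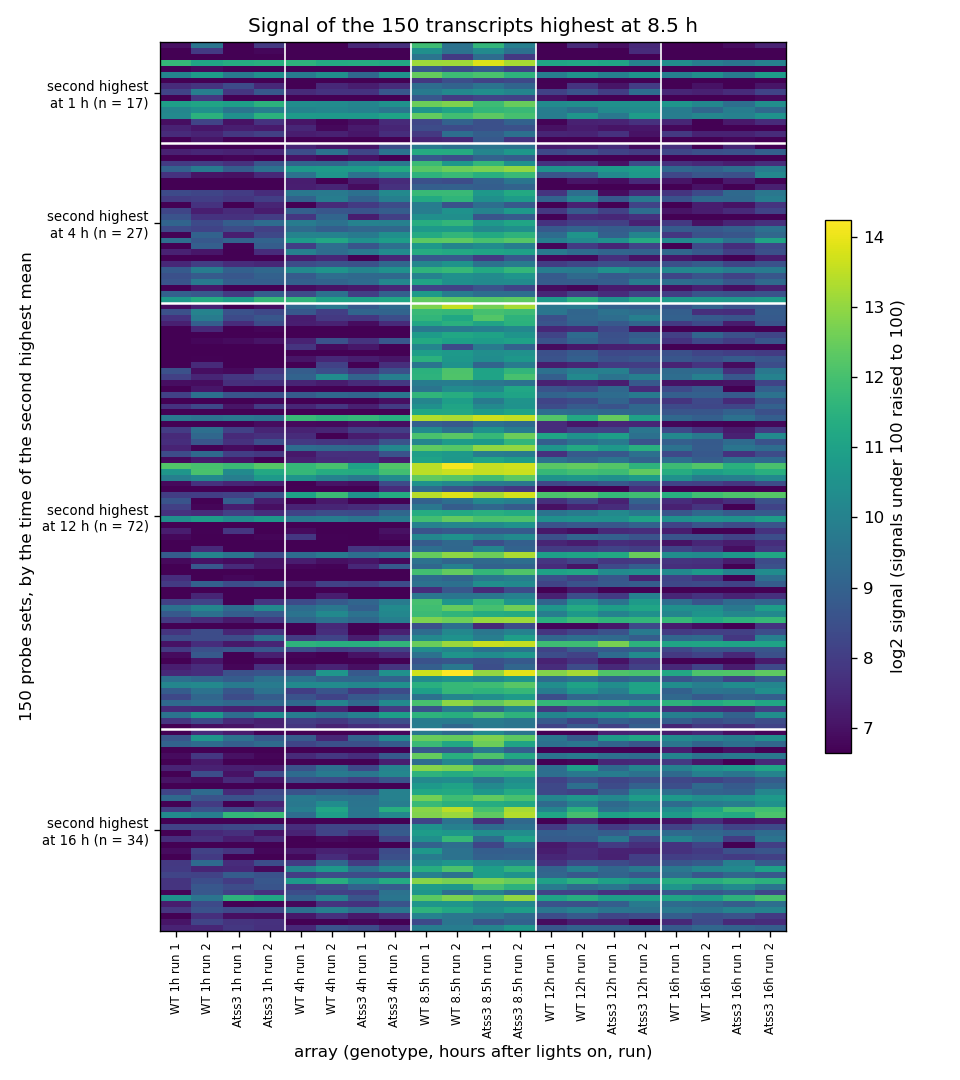
Each row is 1 of the 150 probe sets and each column 1 of the 20 arrays, ordered by harvest time, and the colour gives the log2 signal (signals under 100 raised to 100). Rows are grouped by the time of the second highest mean (17, 27, 72 and 34 probe sets), and in 128 rows the 4 columns of 8.5 h all lie above the other 16.

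The edge of the group was gradual. The last members were 251192_at and AT1G25500, each with a margin of 1.11, and AT1G77640 with 1.1. The first outside were 265067_at and EXO, each with 1.09, and 246922_at with 1.08. EXO, a gene known from brassinosteroid-promoted growth, had a mean signal of 1929 at 8.5 h.

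Members differed in what surrounded the peak. The second highest mean fell at 12 h in 72 members, while 34 had it at 16 h, 27 at 4 h and 17 at 1 h. The 27 that were next highest at 4 h had median signals of 225 at 1 h, 559 at 4 h, 1465 at 8.5 h and 305 at 12 h. In each of these groups the grouping itself placed the named harvest second. The 34 that were next highest at 16 h went from 1554 at 8.5 h to 484 at 12 h and 589 at 16 h. The 17 next highest at 1 h had median signals of 212 at 1 h, 609.7 at 8.5 h and 119 at 16 h. The mean of 12 h and 16 h exceeded the mean of 1 h and 4 h in 118 members, by 2-fold or more in 42, and fell below it in 30, by 2-fold or more in 3. From 1 h to 4 h of light, 31 members differed upward by 2-fold or more and 3 downward. Only 16 of the 150 had mean signals under 150 at all 4 other harvests.

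Genes of the cold response, COR47 and COR15B, gave the highest signals at 8.5 h among members tied to 1 gene, although signals of different probe sets do not compare transcript levels. COR47 (AT1G20440), a dehydrin that protects cells during freezing and drying, gave 11144 and 18072 in WT and 12026 and 13224 in Atss3 at 8.5 h. On the other 16 arrays it lay between 2030.2 and 5437, so it was present all day and 3.02-fold higher at 8.5 h than at 12 h. COR15B (AT2G42530), whose product protects chloroplast membranes in the cold, gave 10536 and 9828 in WT and 12894 and 11919.5 in Atss3 at 8.5 h. Its profile was a broad hill: the mean signal was 777 at 1 h, 3156 at 4 h, 11232 at 8.5 h, 3353 at 12 h and 560.3 at 16 h. LTI30 (AT3G50970), another dehydrin, gave 2893 and 4425 in WT and 2099 and 3192 in Atss3 at 8.5 h, against 115 to 997 on the other arrays. In all 3 genes every array of 8.5 h was above every other array. At that time the genotypes overlapped for COR47 and LTI30, while both Atss3 arrays of COR15B were above both WT arrays. This difference did not pass the tests given below.

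COR27 and COR28, a pair of cold-regulated genes that are controlled by the clock and act back on it, were under the level of 100 on every array of the light period. COR27 (AT5G42900) gave 3928 and 5484 in WT and 3229 and 4556 in Atss3 at 8.5 h. All 8 of its arrays at 1 h and 4 h lay between 2.64 and 33.4, so the peak was at least 42.2-fold higher than at 1 h. It kept a mean signal of 1686 at 12 h and 1298 at 16 h. COR28 (AT4G33980) gave 1702 and 2082 in WT and 1183 and 1548 in Atss3 at 8.5 h, against 2.8 to 15 in the light, at least 16-fold lower. Both WT arrays of COR28 were above both Atss3 arrays at 8.5 h, a difference that did not pass the tests given below. Its neighbour on the chromosome, AT4G33985, was also a member (355 to 597 at 8.5 h), and the log2 signals of the pair correlated at 0.94 over the 20 arrays. AT1G76590 and AT1G76600, the only other adjacent pair among the 73 genes, correlated at 0.73. These correlations are descriptions, since the arrays share their harvest times and both genes of a pair were chosen for the same peak.

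Genes for transcription factors and signalling proteins were also members. BZIP53 (AT3G62420), a bZIP factor of amino acid metabolism under low energy, gave 3599 and 3104 in WT and 2596 and 2475 in Atss3 at 8.5 h, against 426 to 1716 at the other harvests. Both WT arrays of BZIP53 were above both Atss3 arrays at 8.5 h, a difference that did not pass the tests given below. AT5G61590, listed with the synonym DEWAX (an AP2/ERF-type repressor of wax synthesis in the dark), went in mean signal from 299.6 at 1 h to 6541 at 8.5 h, a 21.8-fold difference. NAI1, a bHLH factor needed for endoplasmic reticulum bodies, had a low signal: it gave 237 to 353 at 8.5 h and at most 81.5 elsewhere. CML38, a calmodulin-like protein that binds calcium, gave 522 to 988 at 8.5 h and 55.8 to 481 elsewhere. GRX480, a glutaredoxin that interacts with TGA factors in salicylic acid signalling, gave 1927 and 1680.2 in WT and 921 and 849 in Atss3 at 8.5 h. For GRX480 both WT arrays were above both Atss3 arrays at that time, and all 4 were above the 139.7 to 691 of the other harvests. The genotype difference of GRX480 did not pass the tests given below either.

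Other members with a symbol or synonym act in the cell wall, metabolism, protein repair or transport. EXLA1, an expansin-like protein of the cell wall, gave 1105 and 1776 in WT and 1723 and 3169.7 in Atss3 at 8.5 h, against 201 to 866 elsewhere. UGT76E12, a UDP-glycosyltransferase, gave 549.6 to 926 at 8.5 h and overlapped the other harvests, where 1 Atss3 array at 16 h reached 663. MSRB9, a methionine sulfoxide reductase that repairs oxidized proteins, gave 642 to 1162 at 8.5 h and up to 872 elsewhere, so it overlapped too. AT5G52050, listed with the synonym DTX50 (a MATE-family exporter), gave 536 to 1079 at 8.5 h and 11.4 to 289 elsewhere.

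**Figure D2:**
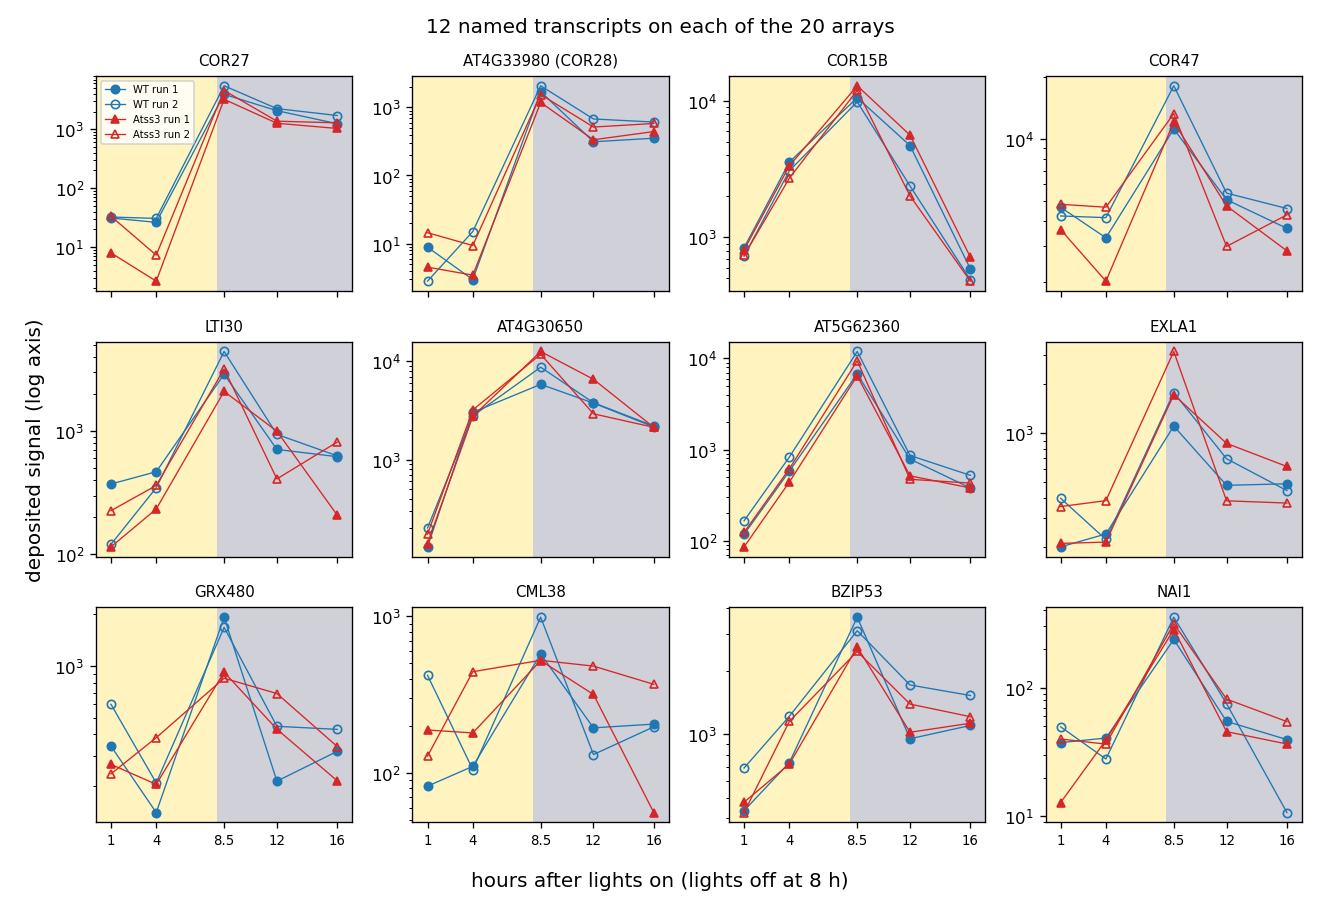
Deposited signal (log axis) of 12 named transcripts against hours after lights on, with the light period in yellow and darkness in grey, for WT (blue circles) and Atss3 (red triangles) in run 1 (filled) and run 2 (open). COR27 and COR28 were under 100 on all light arrays, whereas COR47 was at 2030.2 or more on all 20.

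The largest margins belonged mostly to transcripts without a gene symbol. AT5G62360 had the largest of all: its mean signal was 124 at 1 h, 599 at 4 h, 8364 at 8.5 h, 636 at 12 h and 423 at 16 h, and at 8.5 h the arrays gave 6765 and 11926 in WT and 6446 and 9410.1 in Atss3. The peak was 13.2-fold above the next harvest, with no overlap. AT3G19680 (4.96-fold), AT1G50040 (4.51-fold), AT1G75960 (4.48-fold) and AT5G50450 (4.32-fold) came next among members with 1 gene. AT1G71000 stayed low at all other harvests, with 242 to 762 at 8.5 h and 1.14 to 38.8 on the other 16 arrays. AT4G30650 was the opposite, with high signals on either side of the peak: it gave 2752 to 3203 at 4 h, 5841 to 12630.2 at 8.5 h and 2924 to 6577 at 12 h, which overlap.

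The other genes among the 25 members tied to 1 gene with the largest margins included these. AT5G19120 reached 3704 to 7384 at 8.5 h and stayed at 149.7 to 168 at 1 h. AT1G07050 reached 1791 to 2335 and was at 1.54 to 79.9 in the light. AT3G51450 was up by 4 h, at 1689 to 2430.5, and reached 4883 to 7968. AT2G20670 was also higher at 4 h (699 to 1179) than at 12 h (118 to 674), and reached 1659 to 3571. The others (AT2G22880, AT5G38710, AT3G10020, AT5G12340, AT4G28140, AT4G16146, AT1G32860, AT1G25400 and AT2G27310) had margins of 2.99-fold to 4.17-fold, with all 4 arrays of 8.5 h above the other 16 in each. AT3G15450, with the fifth highest signal among members with 1 gene, gave 4099 to 11114 at 8.5 h and, unlike most, was higher at 16 h (mean signal 2539.9) than at 12 h (1207).

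Of the 10 largest margins, 8 were unnamed: 266901_at (7.78-fold), 266246_at (7.55-fold), 245757_at, 261037_at, 253485_at, 250292_at, 247925_at and 247360_at (4.87-fold). Of these, 266901_at gave 3767 and 3198 in run 1 and 721 and 976 in run 2 at 8.5 h, and 1 WT array of run 2 reached 769.7 at 1 h. It was the only one of the 8 whose 8.5 h arrays overlapped another harvest.

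Of the genes of the listed pathways that could be measured, some clock, cold, starch breakdown and sugar signalling genes had their highest mean at 8.5 h. The 7 lists held 143 genes, of which 25 had a named probe set and 24 passed the filter on dim signals. Of the 25, 10 had their highest mean at 8.5 h and 5 were members (COR27, COR28, COR15B, COR47 and BZIP53). Of all 22746 probe sets, 13.2% had their highest mean at 8.5 h and 150 were members. The lists were chosen with earlier results of these data known, so nothing is read from these counts. They cover only the named genes. The other 118 were not assessed here.

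Among 5 measured clock genes, GI, which links the clock to flowering, was highest at 8.5 h (mean signal 1544) but already at 1196 at 1 h, with a margin of only 0.37. It was under 100 on all 8 arrays of 12 h and 16 h. RVE6 and CDF5 were highest at 1 h and, like GI, had lower mean signals at 12 h and 16 h than at the earlier harvests. Of 5 measured cold genes, COR15A (19212 at 8.5 h, 9783 at 12 h) and the zinc finger gene ZAT10 (2463 at 8.5 h, 1471 at 1 h) were highest at 8.5 h without reaching the 150, at ranks 190 and 331. XERICO was highest at 12 h.

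Both measured starch breakdown genes had their highest mean at 8.5 h, by small margins. PWD, which phosphorylates starch granules, had 3367 at 8.5 h and 3255 at 12 h, a margin of 0.049. Its 12 h arrays (2842 to 3938) lay within the range of its 8.5 h arrays (2027 to 4592), so its time of peak is not settled. DPE1, a glucanotransferase that recycles short glucans, had 117 at 1 h, 1075 at 4 h and 1449 at 8.5 h. None of 3 measured starch synthesis genes (APL3, SBE2.2, PTST1), 6 growth and cell wall genes or the light signalling factor HYH was highest at 8.5 h. A further starch synthesis gene, APL4, was under 100 on all arrays, so no time of highest mean can be given for it. KINBETA1, a subunit of the energy-sensing SnRK1 kinase, had its highest mean at 16 h, where its arrays (1012 to 2144) lay within the range of 8.5 h (634 to 2297). In the tests described next, 0 of the 24 listed genes were called by limma for genotype over the day (7, or 29.2%, had an unadjusted p under 0.05, against 13.7% of all probe sets). Between the runs 8 (33.3%) were called, 4 higher and 4 lower in run 2, against 17.2% of all. With so few genes, nothing particular to the lists is read from these shares.

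The peak was present in each genotype and each run taken alone. All 150 were highest at 8.5 h in WT only, in Atss3 only, in run 1 only and in run 2 only, as a description of the values that chose them. The median margin was 1.60 in WT and 1.33 in Atss3, and 1.49 in run 1 and 1.38 in run 2. The smallest margin was 0.53 in WT, 0.25 in Atss3, 0.63 in run 1 and 0.01 in run 2.

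Whether the mutant differed from WT in these transcripts was tested in limma on all 15470 probe sets that passed the filter, with Benjamini-Hochberg adjustment at 0.05. The 150 all passed that filter, which a high signal at 8.5 h favours. No member was called in any of 5 tests. For the difference over the day, 0 of 150 members were called, beside 0.0194% of all probe sets. At an unadjusted p under 0.05 there were 16 members (10.7%) and 13.7% of all. At 8.5 h 0 were called beside 0.0129%, with 22 members (14.7%) and 11.7% of all under the unadjusted 0.05. For the interaction of genotype and time 0 were called beside 0.00646%, with 29 members (19.3%) and 7.1% of all under it. For the height of the peak over the other 4 harvests 0 were called beside 0%, with 16 members (10.7%) and 7.19% of all under it. For the 12 h minus 4 h difference, which would tilt if the profile came earlier or later, 0 were called beside 0%, with 12 members (8%) and 4.41% of all under it.

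At 8.5 h the Atss3 minus WT difference had a median of -0.11 (log2) over the members and 0.039 over all probe sets. It was above 0 in 62 members and below in 88, and ran from -1.67 to 1.00. The median changed sign without the WT 8.5 h array of run 1 (0.062) or the Atss3 8.5 h array of run 2 (0.017), and was -0.25 without the WT 8.5 h array of run 2 and -0.18 without the Atss3 8.5 h array of run 1, so it rests on single arrays. The GAPDH ratio at 8.5 h was -0.18 and 0.35 in WT and 0.36 and 0.71 in Atss3, and its part in the difference was not tested. Over the day the median was 0.031, against 0.023 for all.

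The members nearest to a genotype call, none of which passed, were these. AT1G21550 gave 1366 and 1333 in WT and 400 and 451 in Atss3 at 8.5 h. The WT arrays were higher in both runs, and the log2 difference was -1.67 (SE 0.364, limma adjusted p = 0.154, or 0.0871 to 0.50 over the alternatives). AT1G61100 ran the other way, with 996 and 711 in WT and 1852 and 1473 in Atss3, without overlap. Its difference was 0.97 (SE 0.211, limma adjusted p = 0.154, or 0.111 to 0.608 over the alternatives). AT5G46710 gave 1120.5 and 1481 in WT and 720.1 and 895 in Atss3, a difference of -0.68 (SE 0.175, limma adjusted p = 0.226, or 0.129 to 0.73).

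Over the day COR27 came nearest, with a difference of -1.0 (SE 0.185, lower in Atss3 in 9 of the 10 comparisons matched for harvest and run, called pairs from here on, limma adjusted p = 0.103). The size depended on the light arrays, where COR27 was under 100 throughout: it was -0.27 with signals raised to 100. Without the Atss3 1 h array of run 2, COR27 (-1.16, limma adjusted p = 0.0102) and AT1G64890 (-0.90, limma adjusted p = 0.0468) were called. With all arrays AT1G64890 differed by -0.52 (limma adjusted p = 0.528), and the only Atss3 array then left at 1 h gave 14.6, against 138 to 194 on the other arrays of that harvest. AT5G62360 differed by -0.39 (9 of 10 pairs, limma adjusted p = 0.136, or 0.0981 to 0.437 over the alternatives). AT2G44500 differed by 0.41 (8 of 10 pairs, limma adjusted p = 0.201, or 0.0833 to 0.444). The unnamed 252475_s_at differed by -0.55 (8 of 10 pairs, limma adjusted p = 0.147) and was called at -0.68 without the WT 4 h array of run 2 (limma adjusted p = 0.0222). It also had the smallest interaction p among members (limma adjusted p = 0.196, and 0.0116 without the WT 4 h array of run 1). Both values depended on arrays far under 100, such as 36.3 and 27.3 in WT and 6.5 and 5.33 in Atss3 at 1 h. With signals raised to 100 the difference was -0.20 (limma adjusted p = 0.157) and the interaction had a limma adjusted p of 0.698.

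For the shape of the profile, AT5G52050 was next for the interaction (limma adjusted p = 0.333), then AT2G20670 (0.407) and GRX480 (0.439). AT5G52050 gave 31.7 and 11.4 in WT and 225 and 211 in Atss3 at 4 h, and 249 and 253 in WT and 287 and 262 in Atss3 at 12 h. The genotypes were thus apart at 4 h, at low signal, and close at 12 h. Its 12 h minus 4 h difference in Atss3 relative to WT was -3.39 (limma adjusted p = 0.902), or -0.99 with signals raised to 100. In peak height AT1G21550 (-1.55), AT5G46710 (-0.74) and AT2G27310 (-1.50) came nearest, with limma adjusted p of 0.502, 0.502 and 0.521. For the 12 h minus 4 h difference COR27 (1.98, but -0.71 with signals raised to 100) and MSRB9 (1.24) followed, both with a limma adjusted p of 0.995.

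**Figure D3:**
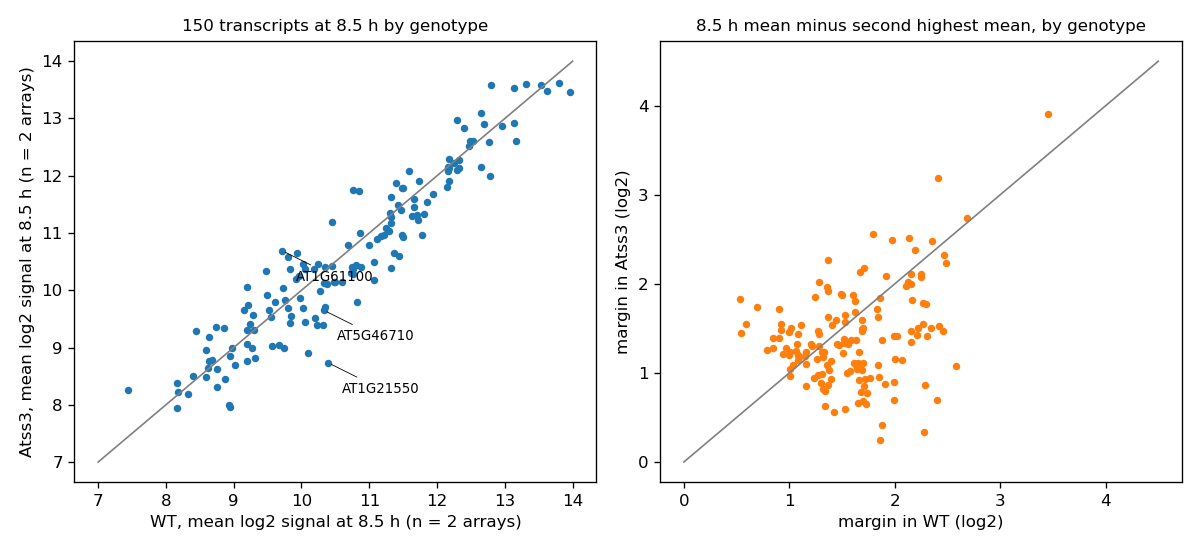
Left, mean log2 signal at 8.5 h (signals under 100 raised to 100, n = 2 arrays per genotype) of each of the 150 transcripts in Atss3 against WT, with the line of equality and the 3 named transcripts nearest to a call at 8.5 h. Right, the margin (8.5 h mean minus second highest mean, log2) in Atss3 against WT, with medians of 1.33 and 1.60.

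More members were called between the runs than between the genotypes. Over the day 35 of the 150 (23.3%) were called between run 2 and run 1, against 17.2% of all probe sets, and 34 of them (22.7%) were higher in run 2, against 8.97% of all that were called higher in run 2. The single member called lower was COR15B (-0.44, SE 0.133, lower in 10 of 10 pairs, limma adjusted p = 0.041), and no member was called lower without the filter or without an array of Atss3 at 4 h, 8.5 h or 16 h or of WT at 8.5 h, 12 h or 16 h. The run 2 minus run 1 difference was above 0 in 124 members (82.7%) and in 54.9% of all probe sets, with medians of 0.29 and 0.029 (log2). The 34 called higher ran from 0.28 to 1.01, with a median of 0.61. Leaving out 1 array removes the run contrast of its group. The count of members called was then 21 without either Atss3 array of 4 h or either WT array of 12 h. It was 23 without either WT array of 4 h, but 35 without either WT array of 1 h. Why the counts differed was not tested. Over all 150 the median run difference was 0.25 in WT (109 higher in run 2) and 0.36 in Atss3 (124 higher), and over the 35 that were chosen as called it was 0.54 and 0.62. The GAPDH ratio given above set the WT arrays of run 1 apart from all others. Within Atss3 it was 0.34 to 0.43 in run 1 and 0.18 to 0.71 in run 2. Its part in the result was not tested.

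Named members called between the runs included AT1G76590 (0.62, SE 0.105, limma adjusted p = 0.00513), AT5G05600 (0.65, SE 0.123, limma adjusted p = 0.00703), MSRB9 (0.64, SE 0.123, limma adjusted p = 0.00719) and AT5G27930 (0.35, SE 0.0675, limma adjusted p = 0.00722), each higher in run 2 in 10 of 10 pairs. AT5G05600 gave 3842 and 4078 in run 1 and 5527 and 6127 in run 2 at 8.5 h, without overlap, and 705 and 630 against 1091 and 1200 at 1 h. AT1G68500 (0.64, 10 of 10 pairs, limma adjusted p = 0.0106) lost its call with signals raised to 100 (0.44, limma adjusted p = 0.0902). AT5G62360 was also higher in run 2 (0.40, 9 of 10 pairs, limma adjusted p = 0.0123). The unnamed 250483_at (0.70) and 256178_s_at (0.69) had the smallest p, both with a limma adjusted p of 0.00189 and 10 of 10 pairs.

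Transcripts highest at 4 h, chosen by the same rule, were mostly lower in run 2 where called, and those highest at 12 h were mixed. Of the 150 with the largest margin at 4 h, 54 were called between the runs, 5 higher and 49 lower in run 2, with a median of -0.23. Of the 150 for 12 h, 34 were called, 14 higher and 20 lower, with a median of 0.05. Whether these counts differ from that of the 8.5 h group was not tested. Harvest by harvest, with signals raised to 100, the median run difference of the 8.5 h members was 0.22 at 1 h, 0.28 at 4 h, 0.09 at 8.5 h, 0.23 at 12 h and 0.23 at 16 h. The order of the harvests was not the same in the genotypes: the median was lowest at 16 h in WT (0.00) and at 1 h in Atss3 (0.03).

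At 8.5 h alone 3 of 150 members (2%) were called between the runs, against 1.36% of all. AT1G68500 gave 293 and 207 in run 1 and 749.8 and 586 in run 2 (1.43, SE 0.194, limma adjusted p = 0.0404). AT1G10770 gave 197 and 187 in run 1 and 415 and 325 in run 2 (0.94, SE 0.177, limma adjusted p = 0.0496). The unnamed 266901_at was lower in run 2 (-2.05, SE 0.33, limma adjusted p = 0.0409). Runs did not overlap in these 3, but all 3 lost their calls when either array of a genotype at 4 h, 8.5 h, 12 h or 16 h was left out. AT1G10770 also lost its call without an array of 1 h and after both other scalings. With signals raised to 100, 13 members were called, and in limma without the filter 0. With the filter an unadjusted p under 0.05 was reached by 32 members (21.3%) and by 20.8% of all probe sets, so the members were at the background rate.

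**Figure D4:**
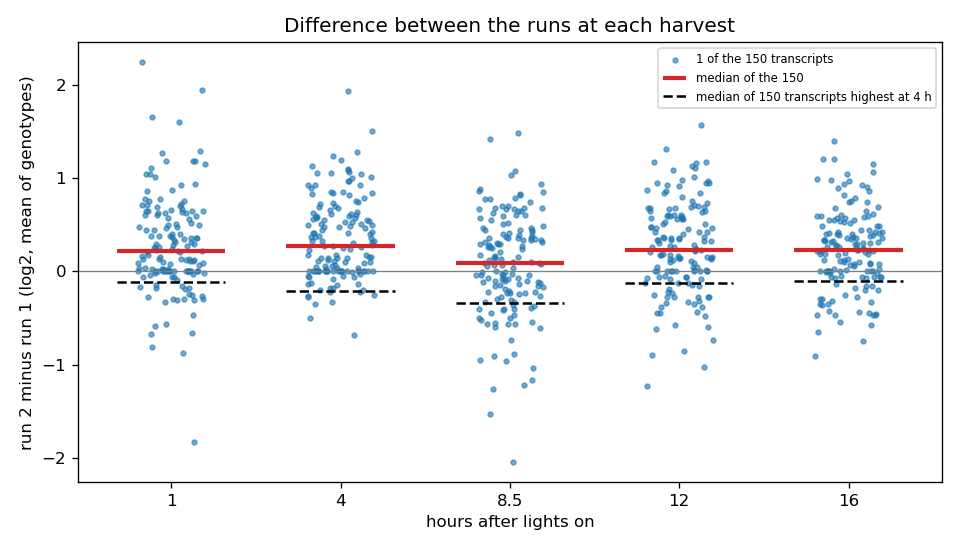
Run 2 minus run 1 (log2, mean of the genotypes, signals under 100 raised to 100) of each of the 150 transcripts at each harvest (points), with their median (red line) and the median of the 150 transcripts with the largest margin at 4 h (dashed line). The red line lies above 0 at all 5 harvests and the dashed line below.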

How the data were processed

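The authors deposited linear signal intensity values, 1 per probe set and array, made with MAS5 per the submitters' processing notes, which name no version. Of 22810 probe sets, 64 controls were left out. Gene names came from a platform table, updated through the gene table of assembly TAIR10.1 (13436 of 13513 probe sets with 1 gene matched). For tests, values under 1 were raised to 1, log2 was taken, and probe sets were kept (15470) if 2 or more arrays had them above that array's 40th percentile. Linear models were fitted with limma 3.58.1 in R 4.3.3 on 10 group means with the run as a block (9 residual and 3.45 prior degrees of freedom). Tests were 2-sided and adjusted by Benjamini-Hochberg at 0.05 over all kept probe sets. Simulated arrays were also fitted, with no run difference and with genotype shifts larger than any member's over the day or at 8.5 h. They do not show whether smaller shifts or run differences would be found. The run at 8.5 h was tested in a model with a run difference at each time. Replicate numbers mark the run per the labels, and same-numbered arrays deviated together (correlation over 0.1 for 41 of 45 group pairs, median 0.199), so the run was kept as a block.

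The members and the lists were chosen with earlier results of these data known. Genes were named by rule among members tied to 1 gene: the 25 largest margins, members in a listed pathway, up to 6 called members per test or the 3 with the smallest p, the 5 with the highest signal at 8.5 h, and ranks 148 to 153. The 10 largest margins and called members were also given where unnamed. NAI1, CML38, UGT76E12, AT5G61590, AT1G64890, the gene pairs AT4G33985 and AT1G76600, and the probe set 252475_s_at were named after their values were seen, the first 4 for their symbols or synonyms. Alternatives were other lower bounds and scalings, no filter, no block, and leaving out each array. Promoter and protein sequences were not used here.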

Additional observations from a re-analysis of the deposited data

How the results depend on the processing

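The 5 counts of members called for genotype were 0 under 123 of 126 alternatives. With no replicate block they were 0 in all 5 tests, and the median difference at 8.5 h was -0.11, so the pairing by run changed no genotype call. Leaving out 1 array gave 0 to 2 members for the day, 0 to 1 for the interaction and 0 for the other 3 tests. The median genotype difference at 8.5 h ran from -0.25 (without the WT 8.5 h array of run 2) to 0.062 (without that of run 1), with 0.017 without the Atss3 8.5 h array of run 2 and -0.18 without that of run 1. With arrays centred on their medians it was -0.22 while that of all probe sets was -0.073. Centring moves all probe sets of an array alike, so the members had to stay -0.15 from all. With quantile normalization, which could change this distance, the medians were -0.12 and -0.003, and the members were -0.12 from all. COR27's 12 h minus 4 h difference turned from 1.98 to -0.71 with signals raised to 100. For the run over the day, 17 members were called without the filter, which tests 22746 probe sets, and 21 to 35 when a group's pair was broken by leaving out 1 array (21 for Atss3 at 4 h or WT at 12 h, 23 for WT at 4 h). The 34 members called higher in run 2 stayed higher in all alternatives run. They were chosen for that difference, so its sign had little room to change. At 8.5 h the run count was 13 with signals raised to 100, 0 without the filter and 0 to 2 with an array left out. The cause of these changes was not tested.

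With a lower bound of 50 or 200 in the rule, 136 and 137 of the 150 stayed, with quantile normalization 146, with WT or Atss3 alone 118 and 117, and with run 1 or run 2 alone 111 and 119. After quantile normalization 131 members had no overlap at 8.5 h. With 2 arrays a group, genotype differences could be missed, and not only small ones. At 8.5 h 3 members differed by 1 or more (log2), the largest by -1.67, and none was called. With 74 probe sets unnamed, pathway counts cover few genes. The motif count planned for promoters, with its alternative window, was not run because no promoter sequences were used here.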
